A study of Caenorhabditis elegans with 4 samples.

Results

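The L2 larvae of a *Caenorhabditis elegans* *prg-1* mutant were compared with its L1 larvae by the levels of their poly(A) RNA. Both groups were whole worms of the strain labelled wm161, grown at 20°C on the bacterium OP50, and each stage was sequenced as 1 library. All 4 mRNA libraries of the series (L1, L2, L3 and L4) carry the *prg-1* mutation, so no control without it enters the comparison. The files list 46096 genes by FPKM (fragments counted per kilobase of a transcript, relative to all mapped fragments), each with a 95% interval and a status set by the authors' Cufflinks run. A gene entered the comparison where its status was OK at both stages and its FPKM was at least 1 in one of them, which held for 15451 of the 46096 genes.

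A larva of this nematode makes a new cuticle before each molt. The epidermis and the seam cells secrete collagens, which form most of the cuticle of the body, while the lining of the pharynx is built from other proteins. Transcripts of many cuticle genes are known to come and go within each larval stage. The worms were collected by stage after an earlier description that was not used here, so a stage and the time within it cannot be told apart. In whole worms, fewer cells of a type and less RNA per cell cannot be told apart.

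A gene is called higher or lower at L2 where the log2 difference of FPKM + 1 was at least 1 in size and the intervals at L1 and L2 did not overlap. By this rule 972 genes (6.29% of those compared) were higher at L2 and 367 (2.38%) were lower, as the plot of L2 against L1 levels shows. The median log2 difference of all compared genes was -0.11. With 1 library a stage there is no test. The intervals cover the error within a library, and the spread between cultures is unknown. The L2 library was 1.005 times as deep as the L1 library, a ratio at which 585 of 2712 genes of low level stood. Of the genes called higher, 77 were listed at 0 at L1, and of those called lower 96 were listed at 0 at L2. For these genes no fold is given.

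**Figure D1:**
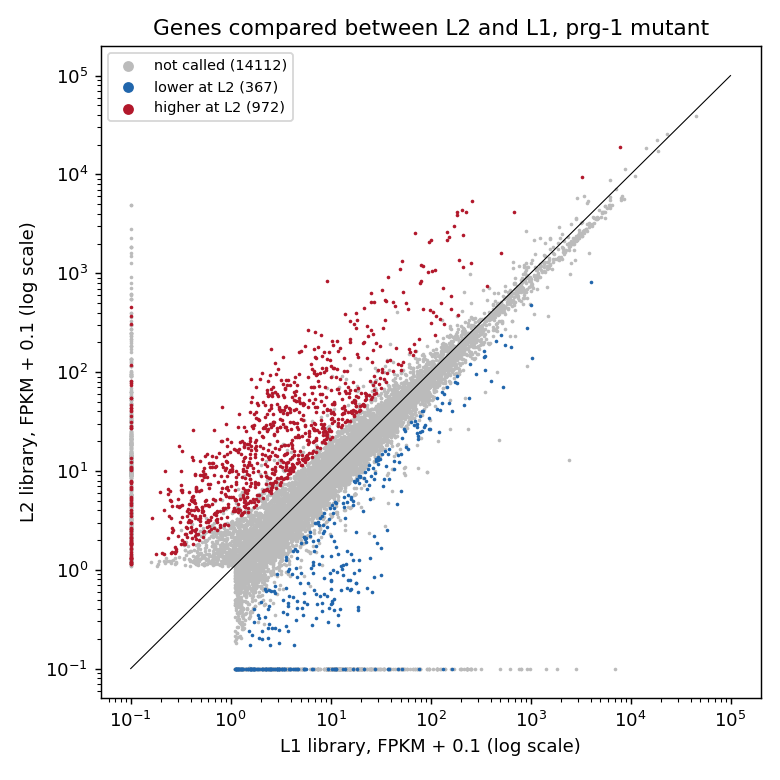
Each point is one of the 15451 compared genes, with its FPKM + 0.1 in the L1 library on the x axis and in the L2 library on the y axis, both on log scales. Red points are the 972 genes called higher at L2, blue points the 367 called lower, grey points the rest, and the line marks equal levels. Points along the left and lower edges are genes listed at 0 in one library.

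The FPKM of 2837 compared genes (18.4%) lay outside its own interval in at least one of the libraries. These genes tended to be short, with a median length of 697 bases in the RefSeq table against 2502 bases for genes whose values lay inside. Many collagens are among them. Below, an interval is printed in parentheses only for genes whose values lay inside it at both stages. With the midpoint of the interval in place of FPKM, 956 of the 972 genes were still called higher and 351 of the 367 still lower.

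The mutated gene itself was measured first. *prg-1*, which codes for the Piwi protein that binds 21U-RNAs, stood at 11 FPKM at L1 and 11.7 at L2, with intervals that overlap, and at 13 at L3 and 23.6 at L4. The locus thus had a level above 0 in all 4 libraries, and the values do not show from which part of the gene.

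Of the 76 gene lists described, the cuticle collagens of the col family held the most called genes. Of 160 listed genes 140 were compared, and 64 were higher and 33 lower at L2, with a median log2 difference of 0.89. Together these calls make 69.1% of the family by symbol, against 8.67% of all compared genes. The summed FPKM of the 140 genes was 28367 at L1 and 65038 at L2, which is 2.29 times as much. The 64 higher genes summed to 3720 FPKM in the L1 library and 31167 in the L2 library, with 17917 at L3 and 28903 at L4. They were chosen for a high value at L2, so the order of their sums is a description.

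Among the 64, *col-107* stood at 146 FPKM (136 to 157) at L1 and 2614 (2605 to 2697) at L2, a log2 difference of 4.15. *col-12* stood at 27.2 (23.7 to 30.8) and 506 (491 to 529), a difference of 4.17. *col-156* stood at 6.21 (4.48 to 7.93) and 120 (111 to 129), a difference of 4.07. The intervals at L1 and L2 did not overlap in any of these 3 genes. The most abundant of the higher collagens at L2 were *col-17*, at 207 and 4316 FPKM, and *col-125*, at 682 and 4125 FPKM, both above their own intervals. The differences of the 64 ran from 1.09 to 4.78, with a median of 2.84, and none of them was listed at 0 at L2.

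The most abundant collagens of all did not meet the rule. *col-10* stood at 3388 FPKM at L1 and 6061 at L2, *col-117* at 3782 and 5360, and *col-3* at 3686 and 5150. *col-144*, at 2899 and 5767 FPKM, was just outside the rule with a log2 difference of 0.99, and the lectin gene *clec-5*, at 1.37 and 3.78 FPKM, was just inside it with 1.01. Each of these 4 collagens was more abundant at L1 than any of the 64 that rose.

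The 33 lower collagens were of different kinds by level. Of these, 5 stood at 100 FPKM or more at L1. *col-149* fell from 1023 FPKM (1004 to 1062) to 139 (130 to 148), a log2 difference of -2.87, and was at 665 at L3 and 686 at L4. *col-42* (listed as Y69H2.14) fell from 931 (912 to 965) to 280 (268 to 294), and was at 1404 at L3 and 1027 at L4. *col-98*, *col-103* and *col-176* were the others. In the L2 library all 5 were at or below 280 FPKM, while their summed level was 3174 in the L1 library and 756 in the L2 library, with 3951 at L3 and 3142 at L4. These genes were chosen for a low value at L2, so the lower sum there is part of the choice.

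The other 28 lower collagens never passed 46.2 FPKM at L1. Their median fell from 13.1 FPKM at L1 to 0.592 at L2, with 0.595 at L3 and 35.4 at L4, and 3 of them were listed at 0 at L2. They include *col-19*, a marker of the adult cuticle, which fell from 14.4 FPKM (9.94 to 15.8) to 0.547 (0.175 to 0.962), with 0.318 at L3 and 50.5 at L4. *col-7*, which is also known from the adult cuticle, fell from 3.61 to 0.327 FPKM, with 0.580 at L3 and 7.90 at L4. *col-122* fell from 23 FPKM (16.2 to 24.1) to 0.554 (0.177 to 0.973), with 0.215 at L3 and 84.7 at L4. *col-88* was at 10.7 FPKM (8.31 to 13.1) at L1 and listed at 0 at L2. The split of the 33 genes at 100 FPKM was made after their values were seen, and the plot of collagen levels by stage shows each kind apart.

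**Figure D2:**
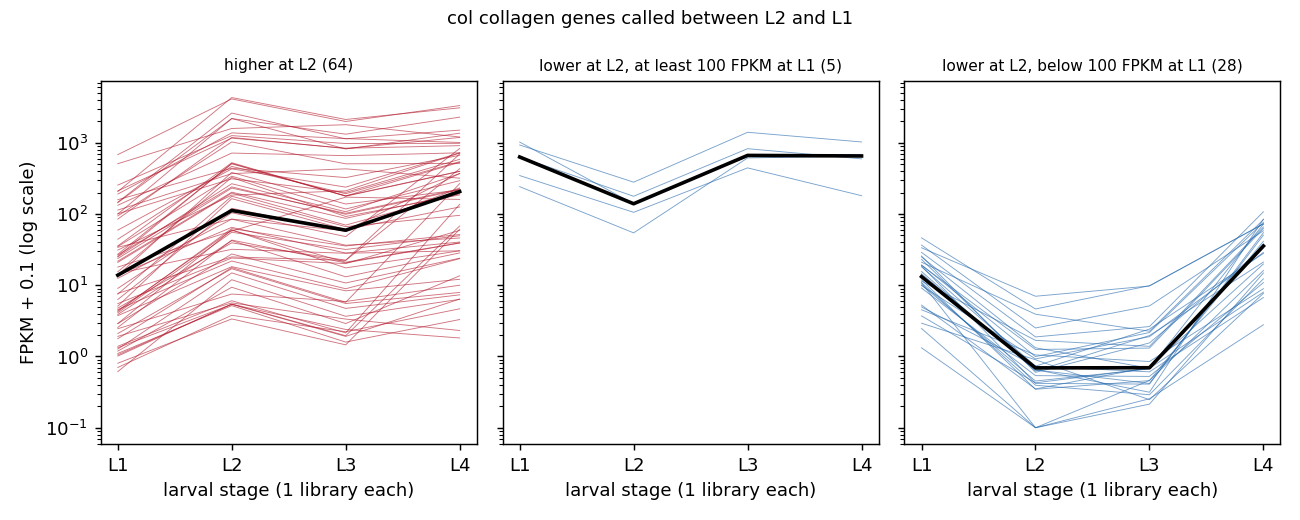
Each thin line is a col collagen gene, with its FPKM + 0.1 on a log scale in the libraries of L1, L2, L3 and L4, and the black line is the median. The 64 genes called higher at L2 are on the left, the 5 lower genes with at least 100 FPKM at L1 in the middle and the other 28 lower genes on the right, where the medians at L2 and L3 are below 1 FPKM.

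Collagens known from mutants of body shape showed the same division. Of 14 such genes 9 were higher at L2 and 3 lower, with a median log2 difference of 3.29. Their summed FPKM was 1187 at L1 and 15635 at L2. *dpy-5*, whose loss makes short worms, rose from 153 FPKM (143 to 163) to 2330 (2312 to 2406). *sqt-3*, a collagen with roles in the cuticle from the first larva on, rose from 209 (197 to 221) to 2418 (2399 to 2494), and *sqt-1*, in which mutations twist the body, from 110 (102 to 119) to 1075 (1053 to 1114). The 9 genes were *dpy-4*, *dpy-5*, *dpy-13*, *sqt-1*, *sqt-2*, *sqt-3*, *rol-6*, *rol-8* and *lon-3*, with log2 differences from 2.64 to 4.18. The 3 lower genes were the blister collagens *bli-1*, *bli-2* and *bli-6*. *bli-1* and *bli-2* form struts of the adult cuticle. *bli-1* fell from 4.54 FPKM (3.66 to 5.34) to 0.737 (0.448 to 1.02) and was at 15.4 at L4. *bli-2* fell from 9.92 (6.45 to 11.1) to 1.28 (0.550 to 1.93) and was at 25.6 at L4. *dpy-14* (4.59 and 2.55 FPKM) and *dpy-17* (3.79 and 2.13 FPKM) did not meet the rule.

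The 6 collagens of the annular furrows, the rings around the cuticle, moved less. *dpy-8*, at 67.8 FPKM (63.1 to 72.5) and 194 (187 to 204), and *dpy-3*, at 109 and 240, were higher at L2. *dpy-2*, *dpy-7*, *dpy-9* and *dpy-10* were not called, and *dpy-7* stood at 110 (102 to 117) and 157 (148 to 166). Among 10 enzymes that fold, cut and cross-link collagens only *bli-5*, a protease inhibitor gene of low level, was higher, at 0.441 FPKM (0 to 0.881) and 3.51 (1.46 to 4.53). *pdi-2*, which codes for a subunit of the prolyl hydroxylase that modifies collagens, had a lower value at L2 (1912 and 1358 FPKM) without meeting the rule. *phy-2*, another subunit of it, stood at 46.6 and 31.9 FPKM, and the peroxidase gene *mlt-7* at 46.4 and 93.6. The summed level of these 10 enzymes was 2454 at L1 and 1920 at L2, and most of it at both stages was *pdi-2*. Their median log2 difference was 0.27, with 6 genes above 0 and 4 below. Intervals were apart with higher values at L2 in 4 of them and with lower values in 4. Among the former were *bli-4*, at 67.3 and 102 FPKM, and *bli-3*, at 12.4 and 18.2. The summed level of the col collagens was 2.29 times as high at L2.

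Hedgehog-related genes that met the rule were all higher at L2. The nematode has no typical Hedgehog ligand, but large families of secreted relatives (warthog wrt, groundhog grd, ground-like grl) and of membrane proteins related to the receptor Patched (ptc and ptr), many of which are made by the epidermis and are needed for molting. Of 89 listed genes 75 were compared, 47 were higher at L2 and 0 lower, with a median log2 difference of 1.37.

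Among the secreted relatives, 17 of 25 grl genes, 7 of 12 grd genes and 6 of 9 wrt genes were higher. *grl-16* rose from 32.2 FPKM (29.2 to 35.2) to 678 (666 to 703), and *grl-7* from 17.2 (14.6 to 19.8) to 308 (296 to 323). *grl-21* had the largest log2 difference of the list, 5.01, at 6.88 and 253 FPKM with values above the intervals. The summed FPKM of the 25 grl genes was 245 at L1 and 1950 at L2. *wrt-2* rose from 23.3 FPKM to 139. *qua-1*, a gene needed for molting, rose from 25.8 to 127. The abundant members *grd-10*, at 285 and 249 FPKM, and *wrt-10*, at 150 and 122, did not meet the rule.

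Among the Patched-related genes, 12 of 22 ptr genes were higher. *ptr-18* rose from 4.36 FPKM (3.49 to 5.21) to 42.5 (37.8 to 43.9), and *ptr-16* from 2.1 (1.49 to 2.69) to 27.2 (23.4 to 28.8). Of the closer Patched relatives, *ptc-3*, which is needed for molting and growth, rose from 27.4 to 79.1 FPKM, while *ptc-1*, known from the germline, stood at 47.7 (45.5 to 50.2) and 40.3 (38 to 42.5) and was not called.

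The astacin metalloproteases (nas genes), secreted enzymes some of which break down the old cuticle at the molt, were higher in 16 of 25 compared genes and lower in 1. Their median log2 difference was 1.58. *nas-15* rose from 4.16 FPKM (3.22 to 5.10) to 78.8 (74.2 to 83.6), and *nas-38*, whose product acts in molting sleep, from 1.69 (1.16 to 2.24) to 34.3 (29.5 to 35.9). *nas-36* and *nas-37*, which are needed to shed the cuticle, rose from 0.912 to 11.3 and from 4.62 to 14.3 FPKM. *nas-3* was the lower one, at 32.8 and 14.6. The 16 higher genes summed to 23.7 FPKM in the L1 library and 256 in the L2 library, with 129 at L3 and 186 at L4. They were chosen for a high value at L2, so the order of these sums is a description.

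Of 20 compared genes known from molting defects or molting cycles, 6 were higher and 1 lower. *mlt-9* rose from 16.5 FPKM (14.6 to 18.5) to 79.7 (74.9 to 84.6), and *mlt-10* from 13.5 to 138. *bed-3*, which codes for a zinc finger protein of molting and vulva formation, rose from 17.3 (14.4 to 18.3) to 51.2 (44.4 to 52). *nhr-23*, the nuclear receptor that drives molting genes, went the other way and fell from 54.8 FPKM (50.7 to 59.0) to 25 (22.3 to 27.7). Its level was 39.4 at L3 and 32.4 at L4. Another receptor gene, *nhr-41*, rose from 10.8 (8.73 to 12.5) to 31.7 (26.9 to 33.0). With *nhr-179* (lower, 5.27 and 2.07 FPKM), these were the only ones called among 189 compared receptor genes named nhr.

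Cuticlins are insoluble cuticle proteins, many with a zona pellucida domain. Of 31 compared 10 were higher and 2 lower. *cut-2* rose from 49.6 to 1110 FPKM, with values above its intervals. *cut-1*, known from the ridges (alae) of the dauer larva, rose from 1.24 (0.686 to 1.75) to 9.98 (7.51 to 11.7), and was at 2.66 at L3 and 160 at L4. *cut-6*, a related gene, was at 0.379 and 1.90 FPKM. The lower genes were *fbn-1*, which codes for a matrix protein of the fibrillin type, at 43.3 (41.9 to 44.7) and 10.4 (9.76 to 11.1), and *let-653*, which codes for a matrix protein that keeps narrow tubes open, at 77.5 (73.4 to 81.9) and 35.9 (33.2 to 38.6). Both belong to the matrix that is laid down before the cuticle itself. No other gene of this list was called lower, so they do not stand for that matrix as a whole.

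**Figure D3:**
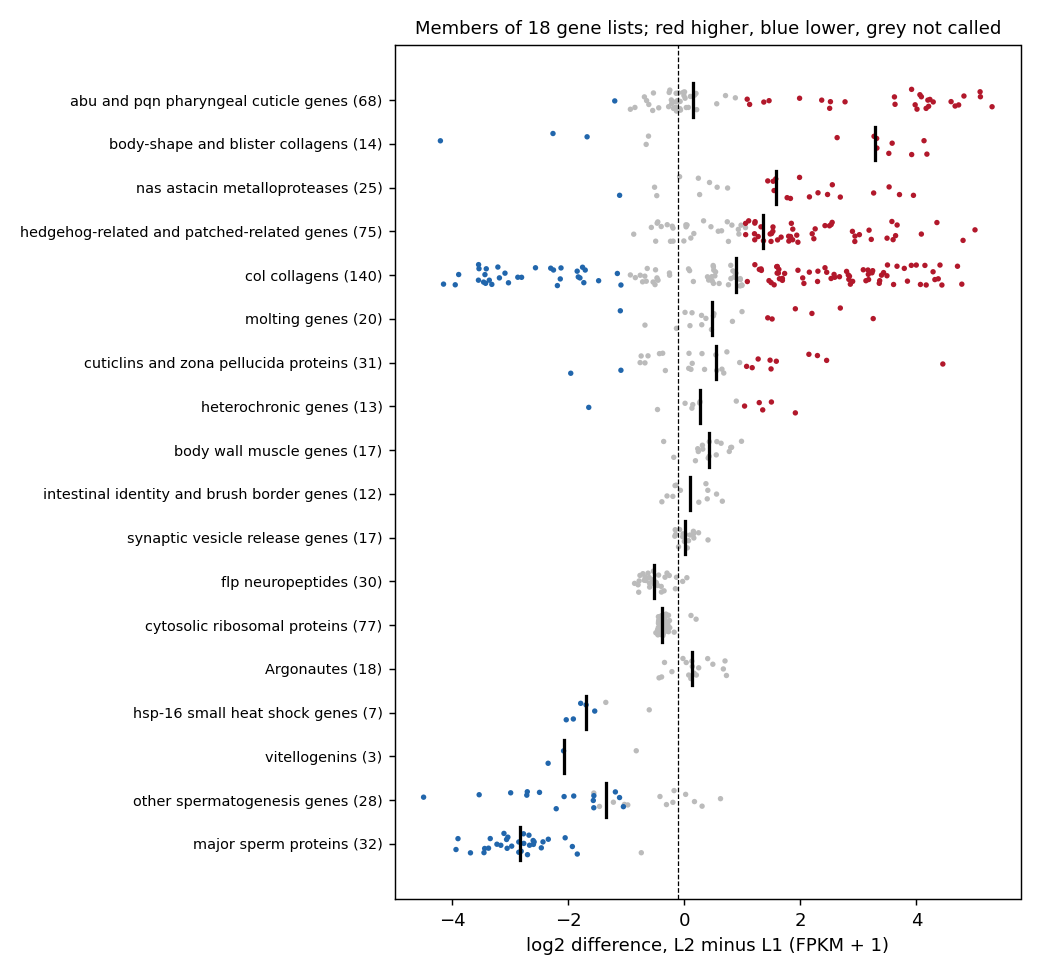
Each point is a gene, with its log2 difference of FPKM + 1 (L2 minus L1) on the x axis, in 18 gene lists whose number of compared genes is in parentheses. Red points were called higher, blue points lower and grey points neither, black bars are list medians, and the dashed line is the median of all compared genes at -0.11. Of the cuticle lists at the top, the nas list reaches 3.95, the molting list 3.26 and the others past 4. Sperm and yolk genes at the bottom lie below -1 in most cases.

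Genes of the cuticle that lines the pharynx were also higher. The abu genes, named for a response to blocked unfolded protein signalling and made in the pharynx around the molt, were higher in 11 of 11 compared genes, with a median log2 difference of 4.60. They summed to 68.0 FPKM at L1 and 1765 at L2. *abu-14* rose from 25.2 FPKM (22.4 to 28.1) to 635 (619 to 659), and *abu-6* from 2.26 (1.29 to 3.13) to 81.9 (76.0 to 88.2). Several abu genes are close copies of each other, so reads could be divided between them in ways the values do not show. Of 57 pqn genes, named for stretches of glutamine and asparagine, 17 were higher and 1 (*pqn-75*, at 31.1 and 13 FPKM) lower, with a median of -0.01, so most of them did not move with the abu genes.

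The phat genes code for short proteins of the pharyngeal glands. *phat-1*, *phat-2*, *phat-4* and *phat-5* were higher, and *phat-4* rose from 57.3 FPKM to 495, with values above its intervals. *phat-3*, at 183 (171 to 194) and 90.6 (83.1 to 98.0), and *phat-8* (listed as F15A4.6), at 152 and 49.1, were lower. *phat-6*, at 23.5 and 11.4 FPKM, and *phat-7* (listed as C49G7.3), at 511 and 329, were not called. Muscle genes of the pharynx were not called in any of 7 cases, and the myosin gene *myo-2* stood at 95.9 FPKM (91.0 to 97.7) and 109 (103 to 111). Calls in the pharynx thus lay in the abu genes, most phat genes and a minority of the pqn genes. A list of 7 muscle genes without a call is too short to differ from the 8.67% called among all compared genes.

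Several genes at the top of the whole comparison belong to none of these families by name. ZK180.5 rose from 51.5 FPKM (47.6 to 55.3) to 1327 (1321 to 1368). F41F3.3 rose from 259 (241 to 278) to 5437 (5417 to 5607), which made it more abundant at L2 than *col-17*. The neighbours in name R12E2.7 and R12E2.14 rose from 18 to 397 and from 21.5 to 448 FPKM. *idpc-3* (listed as T06E4.12) rose from 2.56 (1.36 to 3.77) to 71.4 (64.3 to 78.4). No role is given here for these genes. Each was lower at L3 than at L2 and again higher at L4, as the 64 higher collagens were in their sum. These genes and the 64 collagens were chosen for a high value at L2, so the lower level at L3 can follow from the choice.

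Heterochronic genes set which larval stage a cell's divisions belong to, and 6 of 13 were called. *lin-28*, an RNA-binding protein of the early program, fell from 81 FPKM (74.6 to 87.6) at L1 to 25.2 (21.9 to 28.6) at L2, and was at 19.7 at L3 and 13.8 at L4. *lin-14*, the transcription factor that marks the first stage, stood at 45.4 (41.7 to 49.0) and 32.7 (29.7 to 35.7) and did not meet the rule. Its protein is known to be set by miRNA control of translation as well. *lin-29*, a zinc finger gene that acts at the change from larva to adult, rose from 2.62 (1.91 to 3.36) to 9.25 (7.95 to 10.6) and was at 19.4 at L4. Its partner *mab-10* rose from 2.98 (2.08 to 3.86) to 7.19 (5.45 to 8.53), and *lin-46*, which acts downstream of *lin-28*, from 1.30 (0.719 to 1.83) to 4.89 (3.31 to 6.37).

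*lin-42* and *kin-20* are relatives of the clock genes period and doubletime, and *lin-42* transcripts are known to peak once in each larval stage. *lin-42* rose from 106 FPKM to 402, with the L2 value above its interval, and *kin-20* from 22.6 (20.1 to 25) to 56.7 (52.8 to 60.9). Both were at their highest of the 4 libraries at L2. *lin-41* (51.9 and 62.9 FPKM) and *hbl-1* (25.4 and 30.8) were not called. *daf-12*, the receptor for steroid signals of dauer choice, stood at 38.7 (35.8 to 41.6) and 72.9 (68.7 to 77.2), apart in its intervals at less than the fold of the rule. None of 10 compared epidermal and seam transcription factors was called, *lin-26* among them (88.4 and 84.1 FPKM), and none of the 6 Hox genes.

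**Figure D4:**
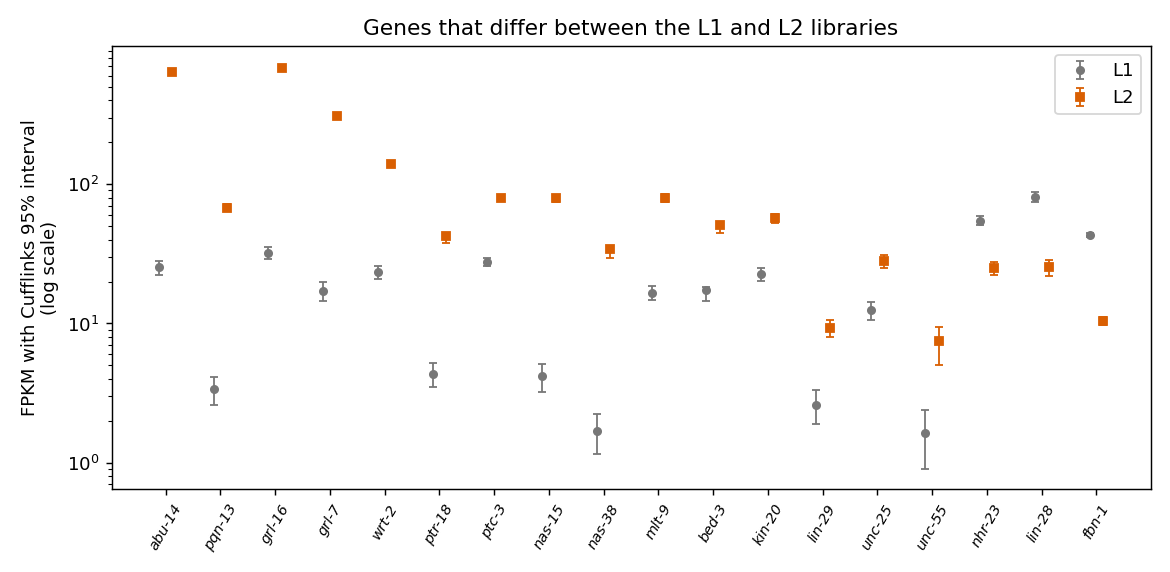
For 18 genes named on the x axis, circles give the FPKM in the L1 library and squares that in the L2 library, on a log axis, with the Cufflinks 95% interval as bars. The genes are from the pharyngeal cuticle, hedgehog-related, protease, molting, cuticlin, timing, motor neuron and transmitter lists. In each gene the intervals of the stages do not overlap, with *nhr-23*, *lin-28* and *fbn-1* lower at L2 and the other 15 higher.

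In the nervous system, 2 of 10 motor neuron transcription factor genes were higher (20.0%, against 6.29% of all compared genes), as was 1 of 14 genes of transmitter synthesis and transport (7.14%). Further motor neurons are born along the ventral cord during L1, and the DD motor neurons then change the side on which they make synapses. *unc-55*, a nuclear receptor of the VD motor neurons, rose from 1.63 FPKM (0.902 to 2.40) to 7.54 (5.07 to 9.41), and was at 2.46 at L3 and 1.49 at L4. *unc-3*, which sets the fate of cholinergic motor neurons, rose from 3.10 (2.23 to 3.97) to 8.68 (6.86 to 10.1), and was at 2.12 at L4. *unc-25*, the enzyme that makes GABA, rose from 12.5 (10.6 to 14.3) to 28 (25 to 30.9). Of the other GABA neuron genes, *unc-30* (4.19 and 8.78 FPKM) and *unc-47* (2.08 and 5) had log2 differences of 0.91 and 0.96 and were not called. *unc-46* (2.03 and 2.24 FPKM) had a log2 difference of 0.09, with intervals that overlap. Other motor neuron factors, none of them called, had log2 differences of -0.35 for *unc-42*, -0.10 for *unc-37* and -0.02 for *alr-1*. Above 0 were *vab-7* at 0.48, *lin-39* at 0.28, *unc-4* at 0.28 and *bnc-1* (F55C5.11) at 1.29. *bnc-1* was listed at 0 at L1, and its intervals overlap. *ceh-12*, a homeobox gene of the VB motor neurons, was listed at 0 at L1 and stood at 3.65 (1.31 to 4.73) at L2. *ceh-12* and *ceh-2* were the only ones called among 44 compared ceh genes, a share below that of all genes.

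None of 17 synaptic vesicle genes, 10 touch receptor genes and 24 ciliary transport genes was called, with medians of 0.02, -0.07 and -0.29. Of 30 flp neuropeptide genes none was called, with a median of -0.53, below that of all genes. Of 75 nlp genes 4 were higher (5.33%, below the 6.29% of all genes), with a median of -0.40. These 4 were *nlp-24*, *nlp-30*, *nlp-33* and *nlp-67* (listed as R11.2), of which *nlp-30* and *nlp-33* are known as antimicrobial peptides of the epidermis, not as transmitters. *nlp-33* stood at 45.1 and 174 FPKM, above its intervals. Of 44 ligand-gated channel genes *lgc-21*, *lgc-22* and *lgc-27* were higher (6.82%, close to the share of all genes), and *lgc-22* rose from 8.02 (6.41 to 9.62) to 111 FPKM, with intervals apart. *unc-31*, at 2412 FPKM at L1 and 12.8 at L2, was not called because its interval at L1 ran from 4.14 to 11402. Of 1630 listed chemoreceptor genes only 59 reached 1 FPKM in one of the libraries. Of these 3 were higher (5.1%) and 5 lower (8.5%), beside 6.29% and 2.38% of all compared genes.

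Of 17 body wall muscle genes none was called, and their median log2 difference was 0.43 against -0.11 for all genes. *unc-54*, the main myosin heavy chain, stood at 664 FPKM at L1 and 1138 at L2, and *myo-3* at 236 and 294. None of 13 basement membrane genes and 24 innexins was called.

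In the intestine, none of 12 identity and brush border genes was called. *act-5*, the actin of the microvilli, stood at 1521 FPKM (1511 to 1570) and 1362 (1352 to 1407), and the transcription factor gene *elt-2* at 5.44 and 8.48. Calls in metabolic families were few and went both ways. *fasn-1*, the fatty acid synthase, fell from 176 FPKM (170 to 177) to 79.0 (75.6 to 81.1), and was at 129 at L3. *lbp-8*, a lipid chaperone of the lysosome, fell from 73.1 (64.5 to 81.7) to 29.7 (24.5 to 34.9), and *ugt-57*, a glucuronosyltransferase by sequence, from 46.6 (43.2 to 50.2) to 14.6 (12.7 to 16.4). The desaturase *fat-6* (330 and 194 FPKM) and the elongases *elo-5* (524 and 330) and *elo-6* (461 and 288) also had lower values at L2 without meeting the rule, and the 16 desaturase and elongase genes had a median of -0.54.

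Lipases were an exception among these families. Of 9 compared lips genes 5 were higher and 1 lower, with a median of 1.11, or 2.84 with a pseudocount of 0.1 in place of 1. *lips-7* rose from 2.22 FPKM (1.08 to 3.33) to 37.6 (33.2 to 42.1), and *lips-3* from 2.01 (1.17 to 2.84) to 27.1 (21 to 27.8). *acs-20*, a fatty acid transport and activation gene needed for the cuticle barrier, rose from 12 to 61.4 FPKM. The protease gene *cpr-6* rose from 137 (129 to 146) to 306 (295 to 321). It was the 1 higher gene of 20 compared aspartic and cysteine protease genes (5%), of which 3 were lower (15%). The log2 difference was below 0 in 15 of these 20 genes, with a median of -0.28. Of 92 C-type lectin genes 8 were higher and 2 lower, shares near those of all genes.

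Small heat shock genes were lower at L2. Of 7 compared *hsp-16* genes 5 were lower, *hsp-16.1*, *hsp-16.2*, *hsp-16.11*, *hsp-16.48* and *hsp-16.49*, with a list median of -1.69. *hsp-16.2*, which is induced by heat and other stress, fell from 10.6 FPKM (5.29 to 11.3) to 1.83 (0.601 to 3). *hsp-16.1* fell from 72.2 to 24.1, with values above its intervals. The pairs of *hsp-16* genes are near copies, so their values are not independent of each other. Of 17 other chaperone genes *hsp-12.1* was higher and *hsp-12.6* lower. None of 15 antioxidant and metal genes was called.

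A distinct set of lower genes consisted of sperm genes, yolk genes and some eggshell genes, which are known from the germline and intestine of older worms. Of 32 compared major sperm protein genes (msp), which build the sperm's crawling machinery, 31 were lower and 0 higher, with a median of -2.83. *msp-113* fell from 12 FPKM (8.21 to 16.4) to 0.301 (0 to 1.06), and was at 0.171 at L3 and 4.65 at L4. Over all 35 listed msp genes the sum was 368 FPKM in the L1 library and 20.6 in the L2 library, with 7.85 at L3 and 165 at L4, and 1 gene was listed at 0 at L1 and 6 at L2. The L1 library thus held more msp transcript by FPKM than the L4 library. The msp genes are near copies of each other, so the count of 31 does not stand for 31 separate measurements. Of 28 other compared spermatogenesis genes 15 were lower and 0 higher.

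The vitellogenin genes code for yolk proteins, which the intestine of the adult hermaphrodite makes. *vit-6* fell from 6.72 FPKM (5.85 to 7.60) to 0.518 (0.219 to 0.982), with 0.491 at L3 and 83.3 at L4. *vit-2* fell from 4.53 (3.90 to 5.17) to 0.309 (0.151 to 0.469), with 67.3 at L4. Of 12 compared oocyte and eggshell genes *perm-2*, *perm-4* and *cpg-3* were lower, and *perm-2* fell from 6.44 (3.36 to 7.72) to 0.173 (0 to 0.372). D1086.10, which was at 11.2 (8.24 to 14.2) at L1, 0.524 at L3 and 26.8 at L4, was listed at 0 at L2.

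**Figure D5:**
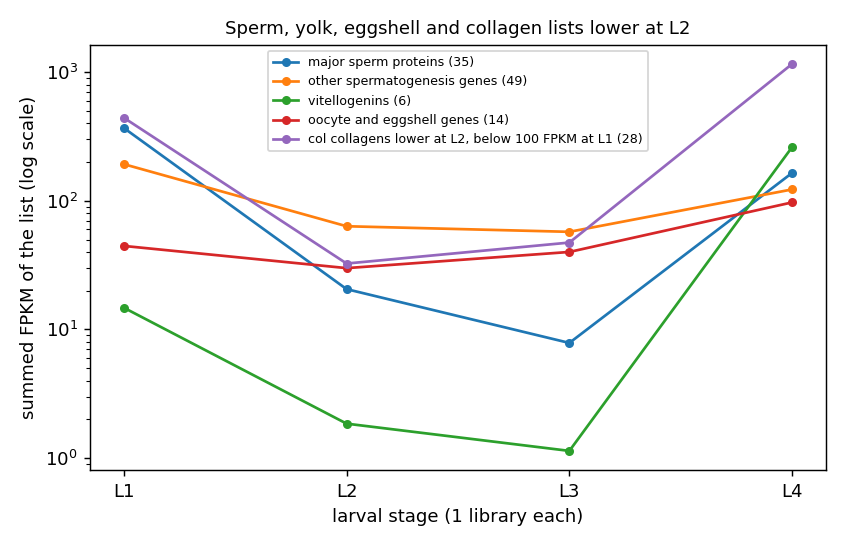
Each line gives the summed FPKM of a list in the libraries of L1, L2, L3 and L4, on a log axis, with the number of genes in parentheses. All 5 sums were lower at L2 than at L1, which for the 28 collagens follows from their choice, and higher at L4 than at L3, and that of the major sperm proteins went from 368 at L1 to 20.6 at L2.

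The summed levels of the sperm, yolk and eggshell lists were thus lower at L2 than at L1 and higher at L4 than at L3. The 28 collagens were chosen for their fall from L1 to L2, and their sum was also higher at L4 than at L3. Of the 367 genes lower at L2, 123 (33.5%) were called higher at L4 against L3, a step at which 3.61% of compared genes were higher, and these 123 make 22.4% of the 550 genes higher at that step. The comparison of L4 with L3 shares no library with that of L2 with L1. Of the 972 genes higher at L2, 109 (11.2%) were higher at L4 against L3, which is 19.8% of the 550. At the same step 0.545% of compared genes were lower, among them 8 of the 367 (2.18%) and 4 of the 972 (0.412%). Only 316 of the 367 and 933 of the 972 were compared at L4 against L3. The shares given here are of the full 367 and 972. Whether RNA of older worms in the L1 library had a part in these values, or in other genes lower at L2, was not tested.

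Genes of the germline that are active in larvae did not meet the rule. None of 10 P granule genes, 20 germline RNA-binding regulators, 16 meiotic chromosome genes, 12 sex determination genes and 18 Argonaute genes was called. Within the fold of the rule, some had intervals apart in each direction, among them 2 P granule genes with higher and 2 with lower values. The P granule genes *glh-1*, at 13.5 FPKM (11.3 to 14.7) and 25 (21.7 to 26.6), and *pgl-1*, at 6.69 (5.58 to 7.80) and 11 (9.59 to 12.4), had higher values at L2, while *car-1*, at 172 (165 to 181) and 155 (147 to 163), and *cgh-1*, at 75.4 (70.9 to 80.2) and 64.6 (60.3 to 69.0), had lower ones. A higher value with intervals apart was also seen for *csr-1*, an Argonaute of germline 22G-RNAs, at 8.64 (7.58 to 9.70) and 15 (13.5 to 16.4). *alg-1*, an Argonaute of miRNAs, was at 61.6 (59.1 to 64.7) and 68.0 (65.4 to 71.2).

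Among chromatin genes the linker histones differed between members. *hil-7* rose from 24.6 FPKM (18.7 to 30.5) to 80.9 (70.2 to 91.5), and was at 17.2 at L3 and 4.62 at L4, so the L2 library was its highest. *hil-1* fell from 6.14 (3.66 to 6.93) to 2.29 (1.08 to 3.45). Of 66 compared genes named his, one of which (*his-24*) is a linker histone, only *his-59* was called, at 0.829 and 3.33. Core histone transcripts mostly lack a poly(A) tail, and the libraries were selected by it.

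Several lists of housekeeping genes held no called gene. None of 77 cytosolic ribosomal protein genes was called, with a median of -0.38 and a sum of 244092 FPKM at L1 and 187874 at L2. None of 32 proteasome genes (median -0.40), 35 aminoacyl-tRNA synthetase genes (-0.26), 30 DNA replication genes (-0.43) and 28 respiratory chain genes (-0.09, or 0.02 with L2 rescaled by the median ratio) was called. The same was true of 15 Wnt and Frizzled genes, 14 Notch and EGF genes, 16 TGF-beta genes and 9 insulin signalling genes. At less than the fold of the rule, intervals were apart with lower values at L2 in 74 of the 77 ribosomal protein genes. So they were in 30 of the 32 proteasome, 16 of the 35 synthetase, 16 of the 30 DNA replication and 8 of the 28 respiratory chain genes. Of all compared genes 14.4% were apart in this direction at any fold. The ribosomal protein genes remained far more abundant than the collagens at both stages. In all, 30 of the 76 lists, with 664 compared genes, held no called gene.

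A scan of all gene families by symbol placed the same families at the top. Of 108 families with at least 10 compared genes, 52 held no called gene. The highest shares called were those of abu (100%), msp (96.9%), nspb (75.0%), col (69.1%), grl (68.0%), nas (68.0%), nspd (60%), grd (58.3%) and ptr (54.5%). The nspb and nspd genes code for short nematode-specific peptides. Of 12 nspb genes 9 were higher, with a sum of 22.9 FPKM at L1 and 574 at L2, and of 10 nspd genes, known from sperm, 6 were lower. Both consist of near copies. By chromosome, 7.89% of compared genes on V and 7.05% on X were higher, against 4% on III. On IV 3.72% were lower, against 0.913% on III. Families that lie in clusters share a chromosome, so these shares are a description.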

How the data were processed

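Whole *prg-1* mutant worms gave 1 library of poly(A) RNA at each larval stage. The authors deposited an FPKM for each gene with a 95% interval and a status, made with TopHat2 (2.0.8), Cufflinks (2.1.1) and genome build ce10, according to the submitters' processing notes. The annotation version, strand use and how reads with several matches were treated were not given in the sources used here. A status of LOWDATA was set for 520 genes in each of the L1 and L2 libraries, and FAIL for 18 at L1 and 26 at L2.

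From these files, the L1 and L2 values were joined by gene identifier and locus with Python (3.11.15), pandas (2.3.3), numpy (2.4.6) and matplotlib (3.10.9). Genes with status OK in both libraries that reached 1 FPKM in either were compared by log2(FPKM + 1), a scale that understates differences of low genes. A gene was called where this difference was at least 1 in size and the intervals did not overlap. With 1 library a stage, no p-value was computed. The calling step was run on data simulated from the L1 library, without genes of low level. Each simulated interval was centred on its value, and no spread between cultures was simulated. This run checked the code only, not how reliable the calls are. Of the listed genes 44817 were matched to RefSeq (WBcel235) by sequence name for biotype, length and current symbol.

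The comparison, the gene lists and the rules were chosen with earlier results of these data known. Genes were named from those picked by a rule, not all of which are printed: in each direction the 15 protein-coding genes that differed most with FPKM inside its intervals, from each list up to 6 called and 3 uncalled members of highest mean FPKM, all members of lists of up to 15 genes, and the 5 highest genes of each library. Others were chosen after their values were seen, as were the subdivisions of the collagens. These are *prg-1*, *col-7*, *col-42*, *col-98*, *col-103*, *col-144*, *col-149*, *col-176*, *csr-1*, *elo-6*, *fat-6*, *myo-3*, *unc-54*, *unc-46*, *unc-47*, *nas-36*, *pqn-75*, *ptc-1*, *ptc-3*, *ptr-16*, *ptr-18*, *qua-1*, *wrt-2*, *cnc-2* and the oac genes. As alternatives, the pseudocount (0.1), low-value filter, scaling, fold, use of intervals and genes kept were each changed in turn.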

Additional observations from a re-analysis of the deposited data

How the results depend on the processing

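Of 972 genes higher and 367 lower at L2, 1716 and 1087 were counted without use of the intervals, 499 and 128 at 4-fold, and 1772 and 2226 with intervals apart at any fold, the only setting with more genes lower than higher. With an FPKM of at least 5 in one library, 238 were lower and 770 higher. A pseudocount of 0.1 gave 1074 higher and 481 lower, no filter on low values 972 and 367, rescaling by the median ratio 1061 and 320, rescaling to a sum of 1000000 gave 939 and 331, protein-coding genes alone 918 and 339, and genes inside their intervals 704 and 258. Leaving out the filter could not change the counts. With a pseudocount of 1, a gene below 1 FPKM at both stages cannot reach a log2 difference of 1. Interval midpoints, an alternative chosen after seeing the data, gave 956 and 353. The median-ratio rescaling raised L2 by a factor of 1.08 and moved the median log2 difference of all genes from -0.11 to -0.01. Of 195 named called genes, 13 lost the call under it, 10 under the sum rescaling, 3 with midpoints and 94 at 4-fold. None changed direction, but these alternatives could not reverse a gene called with intervals apart. No paired analysis was possible because L1 and L2 are single libraries, and for the same reason no replicate could be left out. The intervals cover error within a library, so differences between cultures, or in the time of collection within a stage, cannot be told apart from the stages. Values of short genes and of near copies are the least certain.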

Other observations

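Antimicrobial peptide genes of the fip, fipr, cnc and abf families were mostly higher where they met the rule. Of 39 compared genes 10 were higher and 3 lower. *fipr-8* rose from 6.40 FPKM at L1 to 60.8 at L2, with intervals apart, while *cnc-2* fell from 17.9 to 2.30. *fipr-1*, the most abundant called member, fell from 339 to 142. Except for *fipr-8*, the values of the called members lay above their own intervals in at least one library, and the fipr genes are short near copies. Of 16 compared oac genes, which code for acyltransferase-like membrane proteins, 6 were higher and 0 lower. *oac-1* rose from 0.148 (0 to 0.267) to 6.20 (4.77 to 7.47) and *oac-51* from 8.24 (6.54 to 9.75) to 24.5 (20.6 to 25.6). The oac genes were described after the scan of families had been seen.

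Of 25 compared insulin-like peptide genes 2 were higher (8%) and 1 lower (4%), beside 6.29% and 2.38% of all genes. *ins-33* rose from 3.97 to 20.3 FPKM, with 82.0 at L3 and 49.3 at L4, and *ins-26* fell from 37.9 to 16.6, with 11.9 at L3 and 9.03 at L4. *ins-9* was listed at 0 at L1 and stood at 1.74 (0.249 to 2.99) at L2. Of 14 compared tubulin genes *tba-8*, an alpha tubulin gene, was lower, at 26.4 (21 to 26.7) and 10.7 (8.07 to 11.8). Of 23 cyclins and mitotic regulators *cyb-2.2* was lower, at 2.14 (1.34 to 3) and 0.512 (0.0788 to 0.945). Noncoding genes gave few calls. Of 1324 compared genes of biotype ncRNA 26 were higher and 12 lower, and none of 40 snRNA genes was called, with a median log2 difference of -1.44. None of 18 mitochondrial genes was called.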
